A study of Mus musculus with 47 samples.

Results

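Among the NPY-positive neurons sampled from area CA3 of the mouse hippocampus, 13 cells were divided by their reads on the transcription factor gene Lhx6. The 10 cells with 10 or more Lhx6 reads are called Lhx6-positive, and the 3 cells with fewer, N27, N29 and N38, are called Lhx6-low. These are 13 of the 47 cells of the series. No cell lay near the threshold, since the Lhx6-positive cell with the fewest reads, N26, had 347, while N27 and N38 had 2 each and N29 had 0. The Lhx6-low cells made up 23.1% of the 13 (exact Clopper-Pearson 95% interval 5.04 to 53.8%, which treats the cells as independent draws and takes no account of the mice). Because a measured count chose the sides, all that follows on the split is a description, and no test of it was made.

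Both sides come from the same kind of animal, and Lhx6 was not manipulated: the mice were of the NPY-hrGFP strain, of both sexes and 3 to 8 weeks old. In this strain a green fluorescent protein marks cells that use the Npy gene, so the cells were picked by fluorescence and not by Lhx6. The neurons lay in stratum lacunosum-moleculare (SLM), the distal dendritic layer of CA3, and the cytosol of each was drawn into the patch pipette for a Nextera XT library of polyA RNA. The study used 8 mice in all, but no source used here ties a cell to its mouse. Each side therefore counts as 1 sample, and the spread over cells is no replicate error.

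Of the 21 NPY-positive CA3 cells in the labels, the 8 others were not used in the split. Among these, 7 were shallow, with 111958 to 408585 reads and no read of Lhx6, Gad1, Gad2 or Npy. Their astrocyte markers summed to 2.89 to 31700 CPM and their oligodendrocyte markers to 288 to 140000 CPM (reads scaled to a library total of 1000000), so their own transcripts go against the label of an NPY-positive neuron. The remaining cell, N36, had 2467435 reads on only 1753 genes, and its 4528 Lhx6 reads came to 1840 CPM. The 13 cells had 2229519 to 7949918 reads. Within them the Lhx6-low cells had 2500481 (N27), 3166810 (N29) and 3669876 (N38) reads, inside the range of the Lhx6-positive cells. Detected genes numbered 4390, 6699 and 6085 in N27, N29 and N38, and 3679 to 8149 in the Lhx6-positive cells, with a median of 5701.5. The mitochondrial share of reads was 0.562 to 1.68% in the Lhx6-low and 0.371 to 2.23% in the Lhx6-positive cells. By depth, gene number and mitochondrial share the Lhx6-low cells lay within the range of the others.

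Cortical and hippocampal GABAergic interneurons arise mainly in the medial and caudal ganglionic eminences (MGE and CGE) of the embryonic brain. Lhx6, a LIM homeobox transcription factor, acts downstream of Nkx2-1 in cells of the MGE and stays on in many of their adult descendants, while Prox1 and the serotonin receptor gene Htr3a are commonly used to mark interneurons of the CGE. Neurogliaform cells, slow inhibitory interneurons that express Npy, are known from both origins, while the related Ivy cells of the hippocampus are held to come from the MGE. Lhx6 is one of the genes used to tell the origins apart.

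The Lhx6 gene lies on the minus strand of chromosome 2 of GRCm38, from 36081953 to 36105408. Its promoter is shown because the split rests on it, and that of Lamp5 because Lamp5 was the member of the fixed gene lists whose CPM did not overlap between the sides. Each runs from 250 bases before to 50 bases after a RefSeq transcript start of GRCm38.p6, 5′ to 3′ on the strand of the gene, at chr2:36105359-36105658 (minus strand) for Lhx6 and chr2:136052089-136052388 (plus strand) for Lamp5. No letters are in capitals, since neither window holds the homeodomain core motif TAATTA that was searched for.
Lhx6: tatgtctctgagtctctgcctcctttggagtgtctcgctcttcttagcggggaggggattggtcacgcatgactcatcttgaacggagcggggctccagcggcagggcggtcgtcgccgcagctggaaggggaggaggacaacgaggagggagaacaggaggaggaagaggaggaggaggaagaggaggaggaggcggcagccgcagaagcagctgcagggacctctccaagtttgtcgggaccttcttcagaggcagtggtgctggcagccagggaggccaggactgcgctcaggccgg
Lamp5: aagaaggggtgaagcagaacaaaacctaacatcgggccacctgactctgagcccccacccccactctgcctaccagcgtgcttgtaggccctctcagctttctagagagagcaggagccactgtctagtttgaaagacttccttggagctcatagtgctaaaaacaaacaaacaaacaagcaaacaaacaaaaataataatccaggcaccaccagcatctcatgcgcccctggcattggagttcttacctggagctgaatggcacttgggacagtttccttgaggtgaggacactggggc
TAATTA reads the same on both strands and was present in 1738 of 32851 RefSeq mouse promoters of this length (5.29%). It was absent from 22 promoters of 18 matched genes among the 24 higher in Lhx6-low cells, and from 11 promoters of 7 matched genes among the 10 higher in Lhx6-positive cells. This says only that these letters are not in these windows.

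Lhx6 took 109 CPM in the lowest, 389 CPM in the median and 865 CPM in the highest Lhx6-positive cell. N27 had 0.8 CPM, N38 had 0.545 CPM and N29 had no read, where 3 reads would have been 0.947 CPM. Over summed reads Lhx6 came to 406 CPM in the Lhx6-positive cells (exact Poisson 95% interval 400.0 to 412 CPM) and 0.428 CPM in the Lhx6-low cells (0.117 to 1.1 CPM). Every one of the 10 auditory cortex (AC) cells of the series that were set beside the CA3 cells had 0 Lhx6 reads, as did the 3 CA1 cells. The 2 libraries labelled dentate gyrus also had none, but they had no read of Gad1, Gad2 or Npy either, and their astrocyte markers summed to 31300 and 31100 CPM.

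**Figure D1:**
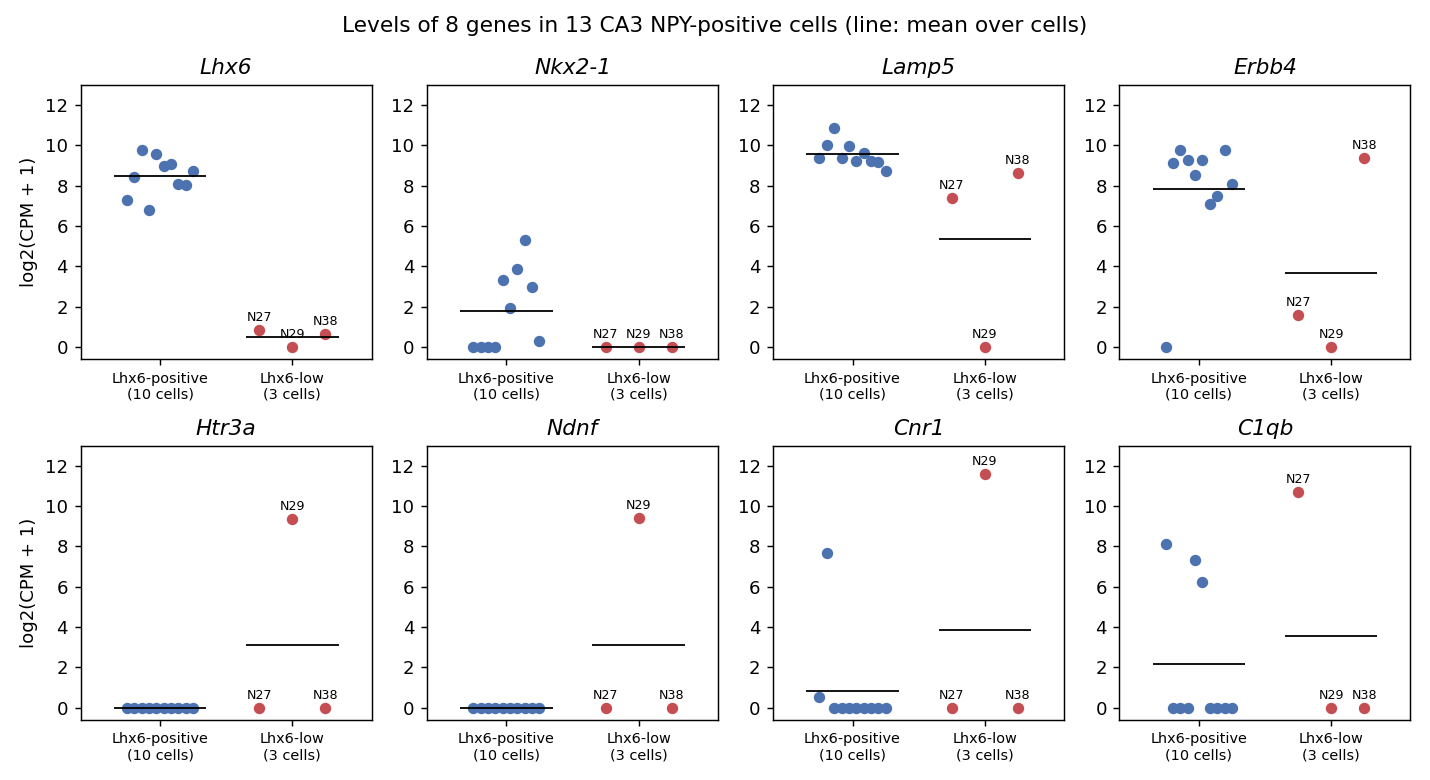
Levels of 8 genes, as log2(CPM + 1) on the vertical axis, in the 10 Lhx6-positive cells (blue points) and the 3 Lhx6-low cells (red points, named), with a line at the mean over cells of each side. Lhx6 parts the sides by construction, Lamp5 does not overlap between them in CPM (it does with TMM factors), Htr3a and Ndnf were read in N29 alone, and C1qb was highest in N27.

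The cells of both sides carried the transcripts of NPY-positive GABAergic neurons. Gad1, which encodes a GABA synthesizing enzyme, took 5210, 4460 and 6270 CPM in N27, N29 and N38, and 2460 to 13000 CPM in the Lhx6-positive cells. Gad2, the gene of the companion enzyme, took 1370, 1280 and 2750 CPM against 571 to 3110 CPM. For both genes the Lhx6-low cells lay inside the range of the others. Npy, the neuropeptide Y gene, took 1490 CPM in N27 and 1580 CPM in N29, inside the Lhx6-positive range of 882 to 4680 CPM, but 250 CPM in N38, below it. The difference in mean level over the 9 GABAergic genes, all of which entered the comparison, had a median of -0.25 on the log2(CPM + 1) scale (Lhx6-low minus Lhx6-positive), beside -0.10 over all genes compared.

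Transcripts of other cell types were read in cells of both sides. The 9 microglial markers summed to 2390 CPM in N27, 0.947 CPM in N29 and 121 CPM in N38, and to 0 to 1360 CPM in the Lhx6-positive cells. In N27 the complement genes C1qb (1650 CPM), C1qc (297 CPM) and C1qa (216 CPM) and the receptor gene Trem2 (148 CPM) made up most of the sum, while Cx3cr1, P2ry12 and Tmem119 had no read there. The 10 oligodendrocyte markers reached 376 CPM in N27, 0.316 CPM in N29 and 56.1 CPM in N38, and 0 to 1040 CPM in the Lhx6-positive cells. The summed levels of the 8 astrocyte markers ran from 0 to 110 CPM and those of the 8 pyramidal cell markers from 0.4 to 6.32 CPM in the Lhx6-low cells, against 0 to 372 CPM and 0 to 391 CPM in the Lhx6-positive cells. All 3 oligodendrocyte precursor markers, 5 of 6 endothelial markers and the astrocyte genes Aqp4, Gfap, Gja1, Aldh1l1 and Sox9 were at 0 in all 13 cells. Only the microglial sum of N27 lay above the range of the Lhx6-positive cells, and its part in the values of N27 was not tested.

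Of the factors tied to MGE origin, Nkx2-1, which acts upstream of Lhx6, had 10 or more reads in 5 of the 10 Lhx6-positive cells (95% interval 18.7 to 81.3%) and in none of the 3 Lhx6-low cells (0 to 70.8%). It took 0 CPM in the lowest, 1.53 CPM in the median and 38.7 CPM in the highest Lhx6-positive cell. Since 5 Lhx6-positive cells also lacked such a level, the sides overlapped, and the interval for 3 cells is wide. Tox3, a gene of the TOX family of nuclear proteins, had no read in the Lhx6-low cells and 10 or more reads in 6 of 10 Lhx6-positive cells, with a median of 6.68 CPM and a highest value of 218 CPM. Maf, a transcription factor gene used in MGE interneurons, took 19.6, 0.947 and 3.54 CPM in N27, N29 and N38, against 1.92 to 163 CPM with a median of 102 CPM in the Lhx6-positive cells. For Maf, N29 thus lay below the Lhx6-positive range and the other two inside it.

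Other factors of the same list did not follow Lhx6. Satb1, a chromatin organizer of MGE interneurons, had its highest level of all 13 cells in N38 (20.7 CPM), and Sox6, which acts after Lhx6 in these cells, had its highest in N27 (20.8 CPM). Lhx8 had no read in any of the 13. Of the 6 MGE factors compared, 5 had a lower mean level in the Lhx6-low cells and 1 a higher one, with a median difference of -1.56 on the log2 scale, beside -0.10 over all genes. None of the 9 MGE factors parted the sides.

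The CGE factors did not mirror this pattern. Prox1 had 10 or more reads in 1 cell, the Lhx6-positive N26 at 115 CPM, and 2.18 CPM in N38, while N27 and N29 had no read. Nr2f1, which encodes the nuclear receptor COUP-TFI, took 21.2 CPM in N29 and 55.3 CPM in N38 and had 10 or more reads in 3 of the 10 Lhx6-positive cells. Npas1 (18.9 CPM) and Npas3 (104 CPM), genes of neuronal PAS domain factors, reached 10 reads in N29 alone. Nfib was read in all 13 cells, at 232, 105 and 102 CPM in N27, N29 and N38 and from 131 to 1760 CPM in the Lhx6-positive cells, and its mean level differed by -2.02 on the log2 scale. Nr2f2 and Sp8 had no read in any of the 13. Of the 4 CGE factors compared, 2 differed in each direction, with a median of 0.21 on the log2 scale.

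**Figure D2:**
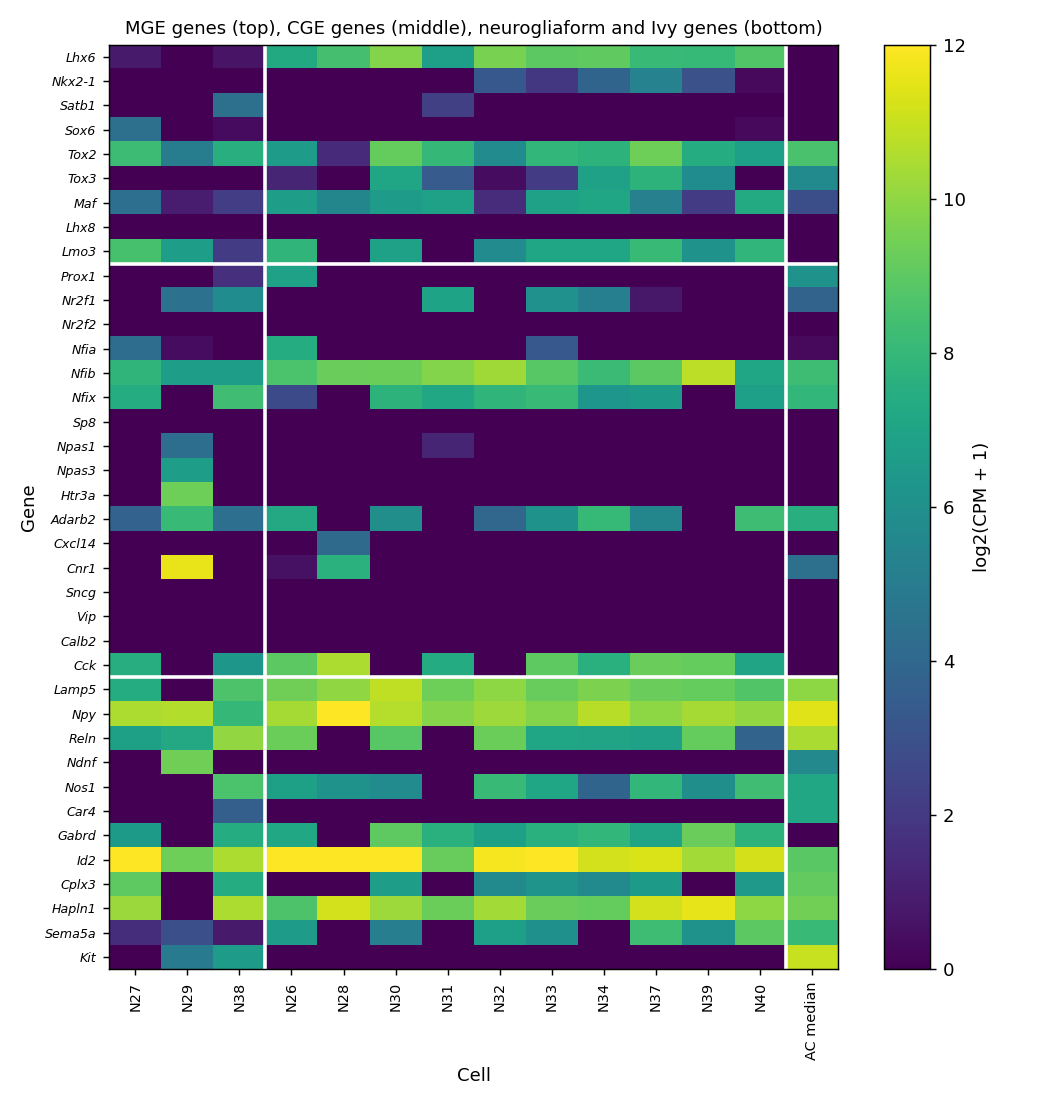
Heat map of log2(CPM + 1) for Lhx6 with factors of the MGE list (top), CGE factors and class genes (middle) and neurogliaform and Ivy cell genes (bottom), with the 3 Lhx6-low cells on the left, the 10 Lhx6-positive cells in the middle and the median of 10 AC cells on the right. The column of N29 holds Npas1, Npas3, Htr3a, Cnr1 and Ndnf and lacks Lamp5, Gabrd, Cplx3 and Hapln1.

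Among the genes of neurogliaform and Ivy cells, Lamp5 parted the sides in CPM but not with TMM factors, and several were at 0 in N29. Lamp5, which encodes a vesicular protein of GABAergic terminals and marks neurogliaform cells, took 169 CPM in N27, 0 CPM in N29 and 400.0 CPM in N38, and 429 (lowest), 666 (median) and 1830 CPM (highest) in the Lhx6-positive cells. In CPM all 3 Lhx6-low cells were below every Lhx6-positive cell, but by a small gap for N38. With edgeR's TMM factors N38 (453 CPM) lay above the lowest Lhx6-positive cell, N40 (401 CPM), which ends the lack of overlap. The mean level differed by -4.21 on the log2 scale and, without N29, by -1.53. Hapln1, an extracellular matrix link protein gene, took 1190, 0 and 1490 CPM in N27, N29 and N38 beside 404 to 3020 CPM. Gabrd, the gene of the extrasynaptic GABA receptor delta subunit, took 92.0, 0 and 174 CPM beside 0 to 603 CPM. Nos1, the neuronal nitric oxide synthase gene of Ivy cells, was read in N38 alone of the Lhx6-low cells, at 386 CPM, and in 9 of 10 Lhx6-positive cells, up to 317 CPM.

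Others of the list went the opposite way or with neither side. Cplx3, a complexin gene, took 521 CPM in N27 and 169 CPM in N38, both above the highest Lhx6-positive cell at 102 CPM, but 0 CPM in N29. Reln, the reelin gene, took 111, 148 and 1050 CPM in N27, N29 and N38, the last above the Lhx6-positive range of 0 to 631 CPM. Kit, a receptor tyrosine kinase gene, had reads in N29 (28.4 CPM) and N38 (97.8 CPM) and none in the Lhx6-positive cells. In the 10 AC cells Kit took 571 to 3210 CPM, so the levels of N29 and N38 lay far below those. Of the 9 list genes compared, 7 were lower and 2 higher on average in the Lhx6-low cells, with a median difference of -2.35, and only Lamp5 did not overlap, in CPM and not with TMM factors. Across cells the 12 genes summed to 12400, 3080 and 5510 CPM in N27, N29 and N38, within the 2960 to 13000 CPM of the Lhx6-positive cells.

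Among genes linked to Lhx6 in migrating or maturing interneurons, none parted the sides. Erbb4, the neuregulin receptor gene, took 2.0, 0 and 654 CPM in N27, N29 and N38, while 9 of the 10 Lhx6-positive cells had 10 or more reads, with a median of 458 CPM and a highest value of 875 CPM. N38 was thus inside the Lhx6-positive range and the other two at its bottom. The chemokine receptor gene Ackr3 had 10 or more reads in N38 (61.0 CPM) and in 3 Lhx6-positive cells. Cxcr4 and Sst had no read in the 13 cells. Of the wider interneuron list, the calcium-binding protein genes Pvalb and Calb1 were at 0 in the Lhx6-low cells and had 10 or more reads in 2 and 4 Lhx6-positive cells.

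Among the ionotropic glutamate receptor genes, N38 lay above the other Lhx6-low cells for 3 subunits, while other genes of the list did not all follow. Gria1, an AMPA receptor subunit gene, took 40.4 and 28.1 CPM in N27 and N29, below the lowest Lhx6-positive cell at 59.5 CPM, and 1570 CPM in N38, above the highest at 1260 CPM. Gria2 took 22.8, 128 and 896 CPM beside 0.232 to 551 CPM, and the NMDA receptor gene Grin1 took 3.6, 10.1 and 553 CPM beside 0 to 374 CPM. N38 therefore had the highest level of all 13 cells for these 3 subunits. Grin2a was read in every cell, at 303, 138 and 592 CPM against 6.54 to 618 CPM, and Grin2b likewise, at 102, 117 and 192 CPM against 24.2 to 519 CPM. Over the 14 genes compared, 10 were lower and 4 higher on average in the Lhx6-low cells, with a median of -1.05 on the log2 scale, and none parted the sides.

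Across all genes, 8453 had 10 or more reads in at least 3 of the 13 cells, and for 34 of them, Lhx6 left out, the CPM values of the sides did not overlap (0.402%). In 24 of these the Lhx6-low cells were higher (0.284%) and in 10 the Lhx6-positive cells (0.118%). The contrast is the one that chose the cells, and these shares belong beside every gene named here. A division into 3 and 10 cells can part genes whatever chose it. How many another such division of the 13 cells would part was not tested. Leaving out a cell can only ease the no-overlap rule, most on the side of 3 cells. A higher count is therefore not by itself a trait of the cell left out. The count was 161 without N27, 159 without N29 and 132 without N38. Without the Lhx6-positive N28 or N40 the 10 became 18 or 16. No gene was left when all 21 labelled CA3 cells were divided by the same rule, into 11 and 10. That division puts the 7 libraries without a Gad1, Gad2 or Npy read on the Lhx6-low side.

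Among the genes higher in the Lhx6-positive cells, Fam171b, a membrane protein gene, had the largest difference, -7.50 on the log2 scale. It took 30 CPM in the lowest, 207 CPM in the median and 742 CPM in the highest Lhx6-positive cell, and 1 read in all 3 Lhx6-low cells together, in N29. Rps20, a protein gene of the small ribosomal subunit, took 11.3 to 283 CPM with a median of 123 CPM and had 1 read in the Lhx6-low cells, in N38 (-6.65). Zranb1, a deubiquitinase gene, had no read in the Lhx6-low cells and was at least 377-fold higher over summed reads in the Lhx6-positive cells, where it took 3.58 to 341 CPM. Ids, which encodes the lysosomal enzyme iduronate sulfatase, took 51.1 to 715 CPM and was read in N29 alone of the Lhx6-low cells, at 7.89 CPM.

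Lamp5 was 1 of these 10 genes, and Pcsk2 and Pam, both genes of neuropeptide processing, were others. Pcsk2, the gene of a prohormone convertase, took 1.6 CPM in the lowest, 60.0 CPM in the median and 248 CPM in the highest Lhx6-positive cell, and 0, 0 and 0.272 CPM in N27, N29 and N38. Pam, whose enzyme amidates peptides such as neuropeptide Y, took 34, 0 and 11.4 CPM in the Lhx6-low cells and 35.8 to 380.0 CPM in the Lhx6-positive cells. For Pam the values of N27 and of the lowest Lhx6-positive cell were nearly equal, so its lack of overlap rests on a small gap, which closed with the TMM and DESeq2 factors. Mff, a mitochondrial fission factor gene, Tusc3, a gene of the oligosaccharyltransferase complex, and Fuom, a fucose mutarotase gene, made up the remainder with differences of -4.26, -3.40 and -4.81. Each of these 3 was at 0 in N27 and close to the Lhx6-positive cells in N29, where Mff took 334 CPM beside a lowest Lhx6-positive value of 393 CPM, Tusc3 took 222 CPM beside 251 CPM, and Fuom took 59.4 CPM beside 62.3 CPM. Fuom overlapped with the TMM and scran factors and after thinning to equal depth. Without N27 the differences of Mff and Tusc3 were -1.61 and -0.82 on the log2 scale.

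Of the genes higher in the Lhx6-low cells, Srd5a3, a gene of dolichol synthesis, differed most, by 7.29 on the log2 scale. It took 358, 115 and 135 CPM in N27, N29 and N38 and at most 1.39 CPM in the Lhx6-positive cells. Lrfn5, which encodes a synaptic adhesion molecule of the SALM family, took 118, 132 and 288 CPM and at most 7.47 CPM (6.97). Sema6d, a transmembrane semaphorin gene, took 543, 343 and 522 CPM, while 8 of 10 Lhx6-positive cells had 10 or more reads and reached 206 CPM. Sema6d thus differed in level, whereas Srd5a3 was all but missing on the Lhx6-positive side.

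Others of the 24 have roles in many cell types. Fbxo28, an F-box protein gene of ubiquitin ligases, took 262, 315 and 233 CPM in the Lhx6-low cells and at most 73.7 CPM in the others. Usf1, a basic helix-loop-helix transcription factor gene, took 174, 208 and 120 CPM against at most 63.3 CPM. Surf1, an assembly factor gene of cytochrome oxidase, took 412, 473 and 264 CPM against at most 141 CPM. Selo, Armc10, Prmt10, Rhof, Alkbh3, Pygb and Ocel1 also stood among the 12 with the largest differences, at 4.70 to 6.40 on the log2 scale. Ocel1 overlapped with the DESeq2 and scran factors. Annotated genes overlap on the opposite strand for Rhof (Tmem120b), Ocel1 (Nr2f6) and Surf1 (Surf2), and Rell2 and Fchsd1, both among the 24, overlap each other by 1749 bases and left the set with TMM factors. How the counting treated strand is not given in the sources used here, so reads inside the shared bases may belong to either gene. Alkbh3 shares 15805 bases with Gm27027 and Usf1 shares 271 bases with Tstd1 on the same strand, where strand would not tell them apart.

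**Figure D3:**
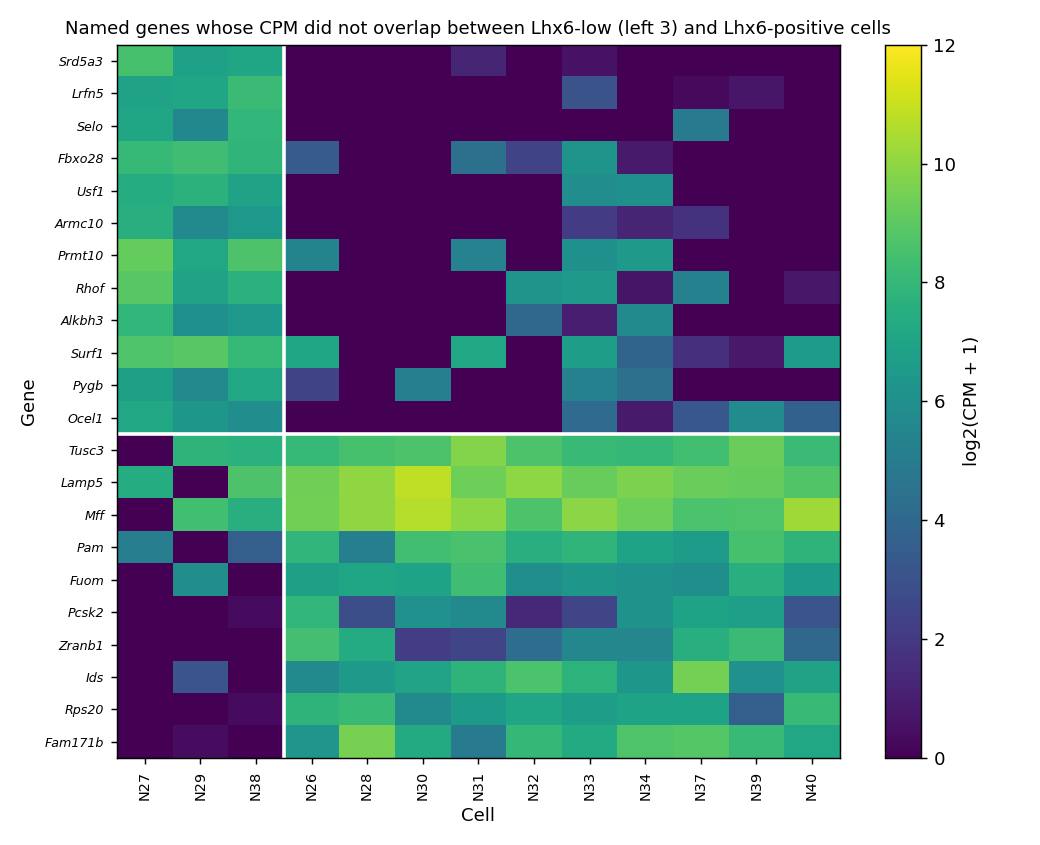
Heat map of log2(CPM + 1) for the 22 genes named by size of difference among those whose CPM did not overlap between the sides, with the 3 Lhx6-low cells left of the vertical line and the 10 Lhx6-positive cells right of it. The 12 genes above the horizontal line were higher in the Lhx6-low cells and the 10 below it higher in the Lhx6-positive cells, several of them by a narrow margin.

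Read by presence alone, 30 genes had 10 or more reads in each Lhx6-low cell and in at most 2 Lhx6-positive cells (0.355% of the 8453), and 38 had them in at least 8 Lhx6-positive cells and in no Lhx6-low cell (0.45%), 68 in all (0.804%). With 1 cell left out, at most 2 exceptions were allowed among the Lhx6-positive cells that remained. This total was then 225 without N27, 247 without N29, 192 without N38 and 109 without the Lhx6-positive N28. Here too leaving out a cell can only ease the rule. Stk25, a kinase gene, Ahsa1, a cochaperone gene, and Caln1, a neuronal calcium-binding protein gene, had no read in the Lhx6-low cells and 10 or more in 9 Lhx6-positive cells each. Over summed reads Stk25 was at least 1100-fold, Ahsa1 at least 700-fold and Caln1 at least 608-fold higher in the Lhx6-positive cells. Elavl2, a neuronal RNA-binding protein gene, took at most 0.632 CPM in the Lhx6-low cells and a median of 199 CPM in the Lhx6-positive cells, 8 of which had 10 or more reads. On the opposite side stood the metabolic genes G6pdx, at 251, 263 and 321 CPM in N27, N29 and N38, and Idh2, at 324, 56.2 and 138 CPM. G6pdx reached 10 reads in 2 Lhx6-positive cells and Idh2 in 1. On the opposite strand Stk25 overlaps Farp2 and G6pdx overlaps Ikbkg. Missing reads were common: 585 genes had 10 or more reads in exactly 10 of the 13 cells, and for 3 of them the missing cells were the same as for Lhx6, while 696 genes reached that level in all 13.

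The 3 Lhx6-low cells differed among themselves. Of the 8 CGE class genes, N29 had 10 or more reads on 3, as did the Lhx6-positive N28, while N27 and N38 had them on 2. Htr3a took 655 CPM in N29 and had no read in the other 12 cells, whereas Cck, Cxcl14, Vip, Calb2 and Sncg had no read in N29. Ndnf, which encodes a neuron-derived neurotrophic factor and marks superficial neurogliaform cells of the cortex, took 671 CPM in N29 and again had no read in the other 12. Cnr1, the cannabinoid receptor gene, took 3090 CPM in N29, 203 CPM in the Lhx6-positive N28 and under 1 CPM elsewhere. Parm1, which every one of the 10 AC cells expressed at 146 to 1290 CPM, took 151 CPM in N29 and had no read in the other 12. It was listed because it was seen earlier to differ between cortex and CA3. N29 also held Adarb2, a gene of CGE interneurons, at 268 CPM, inside the Lhx6-positive range of 0 to 310.0 CPM.

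In other genes N29 was unlike the AC cells. Alcam, an adhesion molecule gene, took 1270 CPM in N29, above the Lhx6-positive range of 10.2 to 796 CPM, Cntnap4 took 298 CPM, the collagen gene Col25a1 took 411 CPM and Igfbp4 took 177 CPM. These 4 genes were at 0 reads in the 10 AC cells, whereas 10 or more reads fell on each of them in at least 9 Lhx6-positive cells. They were listed because they were seen earlier to differ between cortex and CA3, so that contrast was fixed by the choice. Htr3a had no read in the AC cells, and Prox1, read at this level in 5 of 10 AC cells, was at 0 in N29. Lamp5, which every AC cell expressed at 324 to 2800 CPM, had no read in N29, nor had Nfix, Nos1 or Erbb4, which reached 10 reads in 10, 7 and 8 AC cells.

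N27 and N38 lacked Htr3a, Ndnf, Cnr1 and Parm1 and kept Lamp5. N27 took 8820 CPM of Id2, a gene of neurogliaform cells that inhibits DNA binding by helix-loop-helix factors, above the Lhx6-positive range of 591 to 5850 CPM. It also took 364 CPM of Lmo3, above 0 to 283 CPM, and 502 CPM of the kainate receptor auxiliary gene Neto1, above 0 to 460.0 CPM. Cntnap4, Col25a1 and Igfbp4 had no read in N27. N38 held Nos1 at 386 CPM, Reln at 1050 CPM and Hapln1 at 1490 CPM, and it had the lowest Npy of the 13. It held Cntnap4 at 328 CPM and Alcam at 335 CPM but no read of Col25a1 or Igfbp4.

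A gene at 10 CPM or more in 1 cell and under 1 CPM in the other 12 is called private here. N29 had 151 private genes, the most of the 13 cells, N38 had 106 and N27 had 58, while the Lhx6-positive cells had 38 to 134 with a median of 82.5. The named private genes of highest CPM were Ndnf, Htr3a, Cdh8, Cpne2 and Ntng1 in N29, where the cadherin gene Cdh8 took 464 CPM and the netrin-G gene Ntng1 took 303 CPM. In N38 they were Zfp65, Zcwpw1, Cdh12, Wnt5a and Cldn1, with the signaling protein gene Wnt5a at 237 CPM, and in N27 Mettl18, Gtf2h4, Enpp4, St3gal6 and Gpr34. Gpr34, a receptor gene of microglia, took 325 CPM in N27, but it lies within Cask on the opposite strand, so reads there may belong to either gene. Of the genes with 10 or more reads in at least 10 of the other 12 cells, 25.6% lacked them in N27, 7.53% in N29 and 12% in N38, beside 0.92 to 31.1% in the Lhx6-positive cells.

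**Figure D4:**
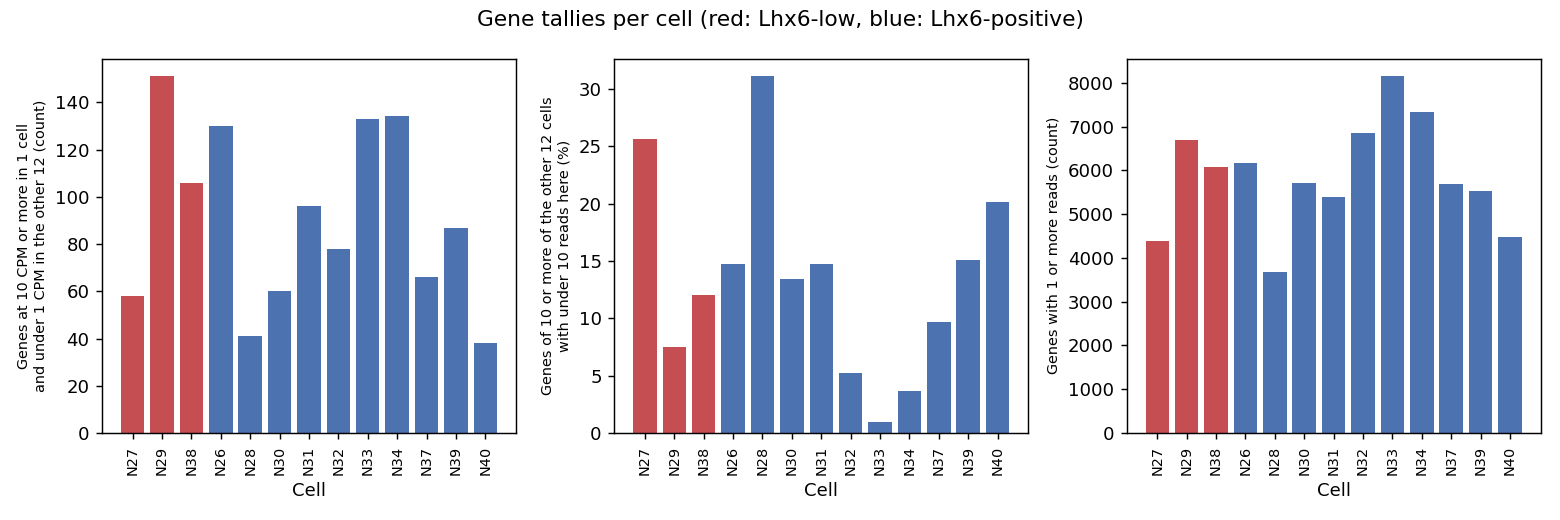
Gene tallies in each of the 13 cells (red bars, Lhx6-low; blue bars, Lhx6-positive): private genes (count, left), common genes with under 10 reads in the cell (%, middle) and genes with 1 or more reads (count, right). N29 has the most private genes, 151, and for the other tallies the red bars lie within the range of the blue ones.

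Over whole transcriptomes the Lhx6-low cells did not stand out as alike. Spearman correlations over the 8453 genes on the log2(CPM + 1) scale ran from 0.27 to 0.32 in the 3 pairs of Lhx6-low cells, with a median of 0.30. The 45 Lhx6-positive pairs gave 0.28 to 0.53 (median 0.33) and the 30 mixed pairs 0.26 to 0.44 (median 0.32). These are correlations across genes, which are not independent, and the cells share a library method but differ in depth, so they carry no p. With the mean of the 10 AC cells N27, N29 and N38 correlated at 0.38, 0.45 and 0.44, beside 0.37 to 0.52 for the Lhx6-positive cells.

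In the AC cells, which all lacked Lhx6 and took no part in the split, the genes of the split were also read. Of the 24 genes higher in the Lhx6-low cells, 10 had 10 or more reads in at least 5 of the 10 AC cells (41.7%), beside 42.5% of all genes compared. Of the 10 genes higher in the Lhx6-positive cells, 7 did so (70.0%), Lamp5 and Mff in all 10 AC cells. The 24 had to be read in each Lhx6-low cell and the 10 in nearly every Lhx6-positive cell to be found. Neither share can therefore be read against that of all genes. Each of the 10 reached 10 reads in 4 to 10 AC cells, Fam171b in 6 and Rps20 and Zranb1 in 7. The 8 genes named for their presence in the Lhx6-positive cells alone did so in 4 (Alg1, Ncbp2) to 8 AC cells (Stk25, Caln1, Emc3, Elavl2). Srd5a3 and Lrfn5, higher in the Lhx6-low cells, reached 10 reads in 3 and 4 AC cells, and Sema6d in 0. The CA1 cells, also without Lhx6, had Ndnf at 120.0, 127 and 749 CPM and Cnr1 at 1310, 399 and 65.0 CPM, and no read of Htr3a, while N36, with Lhx6, had no read of Lamp5.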

How the data were processed

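The deposited table holds raw read counts for 47 single cells and 22800 gene symbols. Per the labels and the study's methods, the authors trimmed reads (Trimmomatic, Flexbar), aligned them to GRCm38 with STAR and did not normalize the deposited counts. The counter is HTSeq in the methods and featureCounts in the submitters' processing notes, and versions are not given in the sources used here. Counts of identifiers that share a symbol were averaged by the authors.

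Every column was matched to a sample by its title, with 0 columns left over. Counts were turned into CPM over all genes, and levels are log2(CPM + 1). Cells were divided at 10 Lhx6 reads. Genes with 10 or more reads in at least 3 of the 13 cells were compared, with Lhx6 left out. A gene does not overlap when the lowest CPM of a side exceeds the highest of the other. As the labels name no mouse for a cell, no model was fitted and no p-value or standard error computed. Intervals are exact (Poisson for summed reads, Clopper-Pearson for shares of cells, 95%). Those for reads cover counting error only, and amplified reads are not independent molecules. Those for shares treat the cells as independent draws, though the mouse of each cell is not known. At-least folds set 3 reads over the summed reads of the side at 0. The depth of 2229519 to 7949918 reads puts that floor of 3 reads at 0.377 to 1.35 CPM in a cell.

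The 13 cells and the 10 AC cells are those an earlier examination of these data matched to the study's heat maps. The study kept more CA3 cells than these, so the share of Lhx6-low cells given here is not that of its CA3 group. The members and all gene lists were chosen with earlier results of these data known. Genes were named by rule: the markers Lhx6, Nkx2-1, Htr3a and Prox1, the 12 largest differences in each direction among genes that do not overlap (or all where fewer), the 8 largest among presence calls not yet named, the 5 private genes of highest CPM in each Lhx6-low cell, and the members of the lists. Gene models without a name were passed over, and some genes of the lists and of the no-overlap set are not reported here, though counts and medians include them. Other genes of the no-overlap set (Sema6d, Rell2, Fchsd1) were singled out after their values were seen. Of 205 named genes, 203 had coordinates in GENCODE vM21 (GRCm38), all but Prmt10 and Selo. Promoters came from RefSeq (GRCm38.p6).

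Alternatives were factors of edgeR 4.0.16 (TMM), DESeq2 1.42.0 (poscounts) and scran 1.30.0 in R 4.3.3, CPM without the mitochondrial genome, cells thinned to 2220000 reads (seed 1), other filters, pseudocounts of 0.1 and 10 CPM, ratios of means, an Lhx6 threshold of 1 read, all labelled CA3 cells, and each cell left out. The steps, tested on simulated data, ran in Python 3.11.15 (matplotlib 3.10.9, numpy 2.4.6, scipy 1.17.1, pandas 2.3.3).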

Additional observations from a re-analysis of the deposited data

Results flagged for a closer look

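Over the 10 Lhx6-positive cells, 31 sets of values were searched for a cell that stands apart from the rest (Dixon's criterion at 95%), and 4 held one. Chance gives about 1 in 20 for values drawn independently, which cells of unknown mice need not be. Npy, on the log2(CPM + 1) scale, was 12.19 in N28 and 9.79 to 10.69 in the other cells. Pnoc, the prepronociceptin gene, was 3.87 in N31 and 8.02 to 9.92 in the others. Rps20 was 3.62 in N39 and 5.75 to 8.15 in the others, which is still above the Lhx6-low cells. The total of N39 was 7949918 reads, beside 2229519 to 4991019 reads in the others.

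Lhx6 was also read in cells outside the split. It took 1840 CPM in N36, a CA3 cell with 4528 Lhx6 reads and 1753 detected genes, and 247 CPM in N45, an AC cell with 1302 Lhx6 reads and 6209 detected genes. The 10 AC cells set beside the CA3 cells had no Lhx6 read.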

How the results depend on the processing

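Leaving out a cell can only ease both rules, most on the side of the 3 Lhx6-low cells. Counts of a single direction moved with Lhx6-positive cells too. Without N28, the 10 genes without overlap that were higher in the Lhx6-positive cells became 18. By presence, the 38 genes of the Lhx6-positive side became 75 without N28, and the 30 of the Lhx6-low side became 53 without N33. The number of genes without overlap, 34 with all 13 cells, ran from 40 to 161 when each cell was left out in turn, the largest values being those without N27 (161), N29 (159) or N38 (132), and was 0 with all labelled CA3 cells (which adds 7 libraries with no Gad1, Gad2 or Npy read) and 561 with an Lhx6 threshold of 1 read, which leaves N29 alone on its side. The number of genes by presence, with at most 2 exceptions among the Lhx6-positive cells in use, was 68. It ran from 89 to 247 without 1 cell, being 225 without N27, 247 without N29, 192 without N38 and 109 without N28. With the threshold of 1 read it was 459. Genes without overlap numbered 25 with TMM (16 of the 24 and 7 of the 10 among them, Lamp5, Fuom and Pam lost), 29 with DESeq2 and 33 with scran or after thinning. At the threshold of 1 read the differences of Fuom and Tusc3 turned to 0.26 and 0.04 on the log2 scale and that of Mff came to -0.20, so that 19 of the 22 named differences held. The mean number of private genes in the Lhx6-low cells, 105, was 46.0 when 50 CPM in the cell and 0 reads elsewhere were required, beside 86.3 and 36.6 in the Lhx6-positive cells. For the other settings the 22 named differences kept their direction, and 21 kept a size of 1 or more without N27 (Tusc3 -0.82). Sizes moved with single Lhx6-low cells (Lamp5 -1.53 and Pam -3.15 without N29, Mff -1.61 without N27), the pseudocount and the way of averaging. As the log2 ratio of mean CPM, Lamp5 was -2.10, Mff -2.28, Tusc3 -1.52 and Fuom -2.60. No paired analysis was possible because the labels give no number that ties an Lhx6-low cell to an Lhx6-positive one. No result on the split comes from a test.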

Other observations

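At least 1 serotonin receptor gene had 10 or more reads in 7 of the 13 cells, 1 of them Lhx6-low. Htr7 had 10 or more reads in 5 Lhx6-positive cells, up to 233 CPM, and no read in the Lhx6-low cells. Htr2a took 10.1 CPM in N29 and reached 127 CPM in 1 Lhx6-positive cell, beside a median of 121 CPM in the 10 AC cells. Htr1a, Htr1b and Htr1d had no read in any of the 13. Shisa9, an AMPA receptor auxiliary gene, had 3 reads in N29 and none in the other 12 cells, and a median of 129 CPM in the AC cells. Htr2a and Shisa9 were among the genes listed because they were seen earlier to differ between cortex and CA3.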
